A study of Rattus norvegicus with 2 samples.

Results

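The 10 genes Tf, Tfrc, Slc11a2, Slc11a1, Fth1, Ftl1, Slc40a1, Hfe, Aco1 and Ireb2 take up, store, export and regulate iron. They were chosen by name, and their probes were found through the RefSeq accession that the array files give for each probe. Of the 10 genes, 9 were found, with 15 probes among the 41009 probes kept on the array. No accession of Tfrc, the transferrin receptor, was matched, and Tfrc was not analysed here. Across the remaining 9 genes no probe was called higher or lower in the rats given lavender oil (LO) than in the control rats by a rule on p and direction. Fold limits of 1.5 and 0.75 on each array, added after the data had been seen, called none either. A single 1.5-fold limit without p took 1 probe downwards, a probe of Hfe that was dim in all 4 channels. Of all 41009 probes, dim ones included, 3339 reached that limit in either direction. The p threshold was passed on both arrays by 2 of the 4 probes of Ftl1, which were brighter in Cy5 whichever pool carried it.

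Iron travels in plasma bound to transferrin and enters cells through the transferrin receptor. In the cell it is stored in ferritin, a shell built of heavy and light chains, and it leaves through ferroportin. The iron regulatory proteins bind a stem-loop in the mRNAs of ferritin, ferroportin and the transferrin receptor and so tie their translation or stability to the iron supply, a step that mRNA levels show only in part. Red cell precursors, mainly in the bone marrow, need iron for hemoglobin, and macrophages of the spleen and liver recover it from old red cells.

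The animals were 12 male rats aged 7 weeks, 6 in each group. For 13 days the LO group received a daily gastric dose of 5 mg/kg, diluted in 10% ethanol, and the control group the diluent alone (0 mg/kg LO). Dissection was on day 14. The study's methods and the growth protocol of the labels name F334 rats, while the strain field of the labels reads Wistar, and the labels add the portal vein to the heart as a source of the blood. The whole blood RNA was pooled within each group of 6 rats, so that the 4 channels of the 2 arrays hold 2 pools, each measured in both dyes. Array 1 had LO in Cy5 and control in Cy3, and array 2 had LO in Cy3 and control in Cy5. Nothing in the design measures the spread between rats, no test between LO and control was possible, and every SD given here is that between 2 technical arrays (n = 2). Between 44.8% and 50.3% of the features that were not control spots were well above background in a channel, and 0 were saturated. In pooled whole blood, fewer cells of a type and less RNA per cell cannot be told apart.

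The pools had the markers of whole blood. Every matched probe of red cells (5 probes), platelets (5), neutrophils (5) and T cells (5) was well above background in all 4 channels, as were 6 of 7 monocyte probes and 1 of 2 B cell probes. Of 12 probes for hepatocyte genes, a cell type that blood should lack, 7 were dim in all 4 channels and 2, for Alb and Serpina1, were bright in all 4. No marker probe bright in all 4 channels was called higher or lower in LO.

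Each ratio is given as LO/control on the log2 scale. The mean of the 2 arrays is called the LO part, since a dye effect cancels in it. The difference between the arrays divided by 2 is called the dye part, and equals the mean log2 Cy5/Cy3 ratio of both arrays. Of the 15 probes, 11 from 7 genes were well above background in all 4 channels and are called measured. To be called, a probe needed the same LO/control direction on both arrays and, on each, a p under 0.01 in the error model of the Feature Extraction software. This p threshold is taken from the study's methods, but the rule is not the one behind the study's gene lists, which were not used here. It was met by 0 of the 15 probes upwards and 0 downwards, where it took 0.00975% and 0.0122% of all probes, so that with 15 probes a count of 0 lay near the background. A wider rule, chosen with the data already seen, used fold limits and no p. The limits are those that the study's methods give for the genes entered in its pathway analysis. Their use on each array and without p was chosen here. Cy5/Cy3 had to reach 1.5 where one pool carried Cy5 and stay at or under 0.75 where the dyes were swapped, which took 0.835% of all features upwards and 1.09% downwards. Of the 15 iron gene features this rule took 0 in either direction.

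**Figure D1:**
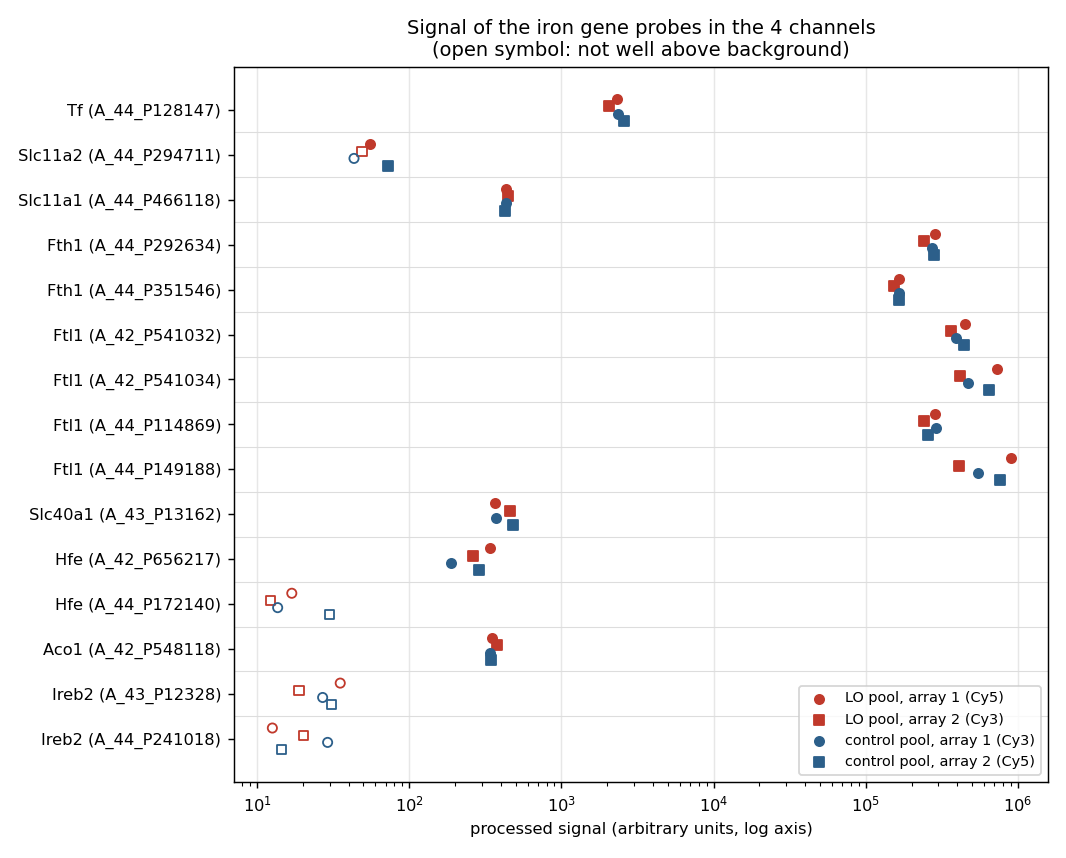
Processed signal (arbitrary units, log axis) of the 15 probes of the 9 iron genes found, with 1 row for each probe. Red symbols are the LO pool and blue symbols the control pool, circles are array 1 and squares array 2, and open symbols are not well above background. The 11 measured probes have 4 filled symbols, and both Ireb2 probes and 1 Hfe probe have 4 open ones.

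Transferrin (Tf) is the iron carrier of plasma, made mainly by the liver. Its probe gave 2332 for LO and 2349 for control on array 1, and 2063 for LO and 2570 for control on array 2. The pools lay close together on array 1, and LO was the lower on array 2. On the log2 scale LO/control was -0.01 on array 1 and -0.32 on array 2, which gives an LO part of -0.16 ± 0.22 (SD, n = 2). The Feature Extraction p was 0.959 and 0.125. Of the measured probes of the array, 84.8% had a smaller LO part in size. The hepatocyte markers stood beside it with a summed signal of 523 for LO and 593 for control on array 1, and of 749 and 485 on array 2. This sum is over all 12 probes, 7 of them dim in all 4 channels. The 2 measured probes had an LO part of 0.14 ± 0.36 (Alb) and 0.20 ± 1.43 (Serpina1) (SD, n = 2), less than the spread between the arrays. For both, LO was behind on array 1 and ahead on array 2. Alb went from -0.12 to 0.39 and Serpina1 from -0.80 to 1.21, with a dye part of -1.01 for Serpina1. No direction is read from them, and their part in the Tf value was not tested.

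Transporters of the Slc11 family carry iron across membranes, Slc11a2 (DMT1) in the gut and in the endosomes of red cell precursors, and Slc11a1 (NRAMP1) in the phagosomes of macrophages and neutrophils. The Slc11a2 probe gave 55.6 for LO and 43.4 for control on array 1, and 49.0 for LO and 72.2 for control on array 2. Only the Cy5 channel was well above background each time, so each pool was measured on 1 of 2 arrays. The LO/control ratios of 1.28 and 0.678 each rest on 1 signal not well above background, and no order of the pools is read from them.

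Slc11a1 gave 434 for LO and 435 for control on array 1, and 447 and 426 on array 2. All 4 signals lay within a narrow band. With an LO part of 0.034 ± 0.051 (SD, n = 2), the difference was smaller than the spread between the arrays, and the Feature Extraction p was 0.990 and 0.745. Markers of the cells known to express it were also read. The 5 neutrophil marker probes had an LO part between 0.05 and 0.19, and the 6 measured monocyte marker probes one between -0.20 and -0.06. The neutrophil and monocyte markers therefore lay on opposite sides of 0 in the mean of the arrays. The SD between the arrays ran from 0.0052 (Retnlg) to 0.40 (Mmp8) over the neutrophil probes. Over the measured monocyte probes it ran from 0.017 (Csf1r) to 0.73 (Itgam), and with median centring Itgam was at 0.01. The part of these markers in the Slc11a1 value was not tested.

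Ferritin stores iron, with the heavy chain (Fth1) oxidising it on entry and the light chain (Ftl1) helping to build the core. All 6 ferritin probes, 2 for Fth1 and 4 for Ftl1, were measured. The reference names 6 further loci after Fth1, 5 of them pseudogenes, and 21 after Ftl1, 15 of them pseudogenes, and no probe was matched to any of these. Which of these loci add to the signal of the ferritin probes is uncertain.

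The Fth1 probe A_44_P292634 gave 285049 for LO and 272070 for control on array 1, and 242999 and 279294 on array 2. LO was ahead on array 1 and behind on array 2, with an LO part of -0.07 ± 0.19 (SD, n = 2). The second Fth1 probe, A_44_P351546, gave 164576 for LO and 166474 for control on array 1, and 154174 and 165842 on array 2. Here LO was slightly lower on both arrays, with an LO part of -0.06 ± 0.06 (SD, n = 2).

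The Ftl1 probe A_44_P149188 gave 907050 for LO and 547519 for control on array 1, and 410188 for LO and 760213 for control on array 2. On each array the pool in Cy5 was far ahead of the pool in Cy3. LO/control came to 1.66 on array 1 and 0.540 on array 2, with a Feature Extraction p of 6.90e-04 and 5.08e-05. Each array alone passed the threshold, in opposite directions. The LO part was -0.08 ± 1.14 (SD, n = 2), while the dye part was 0.81, a 1.75-fold higher signal in Cy5. The LO pool was 2.21-fold brighter on the array where it carried Cy5, and the control pool 1.39-fold.

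The Ftl1 probe A_42_P541034 behaved likewise, with 727850 for LO and 472024 for control on array 1, and 417202 and 648744 on array 2. Its ratios were 1.54 and 0.643, with a Feature Extraction p of 0.00319 and 0.00268. Its LO part was -0.0061 ± 0.89 (SD, n = 2) and its dye part 0.63. In both probes the 2 Cy5 signals were above the 2 Cy3 signals, and the pools overlapped.

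The other two Ftl1 probes followed the dye less. A_42_P541032 gave 450463 for LO and 393737 for control on array 1, and 364581 and 443760 on array 2, with a dye part of 0.24 and an LO part of -0.04 ± 0.34 (SD, n = 2). A_44_P114869 gave 286037 and 291541 on array 1 and 240621 and 256774 on array 2, with a dye part of 0.03 and an LO part of -0.06 ± 0.05 (SD, n = 2). LO was thus slightly lower on both arrays in the latter, and in the former the order turned with the dye.

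The 4 probes of Ftl1 carry the accession of 1 transcript, and their dye parts lay farther apart than their LO parts. Over these probes the LO part had a mean of -0.05 ± 0.03 (SD between 4 probes) and the dye part a mean of 0.43 ± 0.36. For Fth1 the LO part was -0.064 ± 0.0042 (SD between 2 probes) and the dye part 0.09 ± 0.06. Among the 656 genes with 2 or more measured probes, the median SD between the probes of a gene was 0.05 for the LO part and 0.13 for the dye part, and among the 17 genes with 4 or more it was 0.03 and 0.13. Ftl1 is itself 1 of these 17 genes and lay at their median for the LO part, and above it for the dye part. In 6 of 6 ferritin probes the LO part was below 0, between -0.08 and -0.0061, against 51.3% of all measured probes. Among the 129 probes with a mean signal over 100000, to which all 6 belong, the share was 58.9%. With normexp and loess the ferritin probe A_42_P541034 was above 0, at 0.0055. The 6 ferritin probes share 2 genes and the same 2 arrays, and are not replicates of the condition.

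Towards the same dye, 2 of the 15 probes passed the p threshold on both arrays, both of Ftl1, where 2.64% of all probes did so, and 1.42% of the measured ones. The 2 probes belong to 1 gene. Red cell markers were read the same way, since ferritin is made in quantity by developing red cells. Their LO part lay between -0.09 and 0.05 over 5 probes. The dye part was 1.11 for Alas2, the first enzyme of heme synthesis, and 0.55 for Hbb, a beta chain of hemoglobin, but -0.12 and -0.27 for the 2 probes of Slc4a1, the anion exchanger of the red cell membrane. Among the 129 probes of the array with a mean signal over 100000, to which all 6 ferritin probes belong, the dye part was above 0 in 84, with a median of 0.07, and 13 were called towards the same dye. The part of signal strength in the Ftl1 values was not tested.

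**Figure D2:**
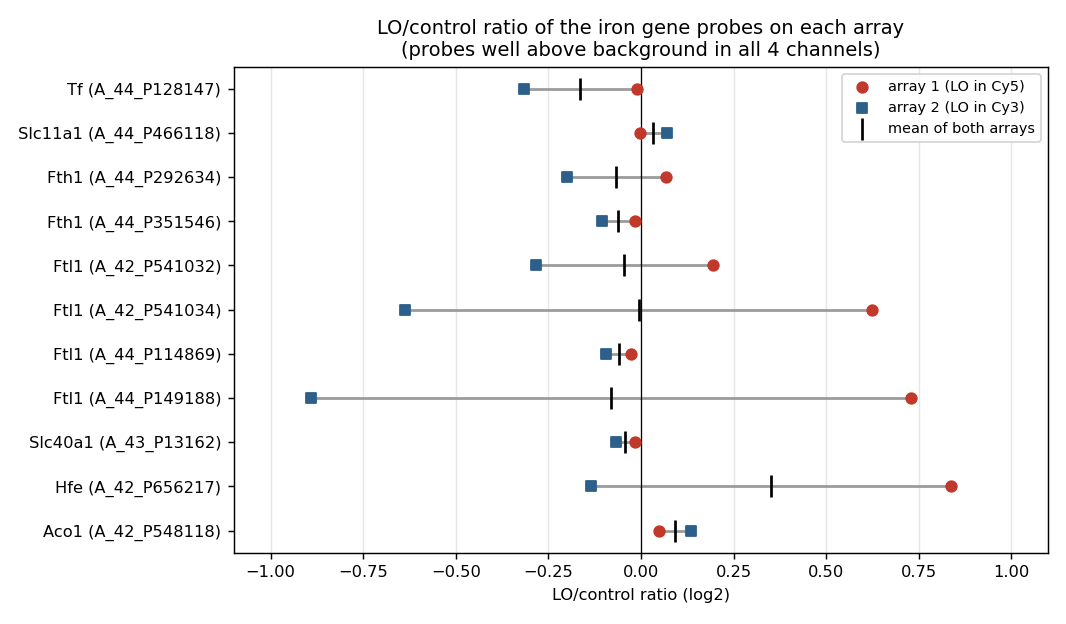
LO/control ratio (log2) of the 11 measured probes on array 1 (red circles, LO in Cy5) and array 2 (blue squares, LO in Cy3), joined by a line, with the mean of both arrays as a black bar. The 2 Ftl1 probes with the widest lines reach from -0.64 to 0.62 and from -0.89 to 0.73 around means near 0, and the Hfe probe is the one whose mean, 0.35, lies farthest from 0.

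Ferroportin (Slc40a1) is the known exporter of iron from cells, among them the macrophages that recycle red cells. Its probe gave 366 for LO and 371 for control on array 1, and 460 and 483 on array 2. Both pools were brighter on array 2, by a similar factor, and LO was the lower by a few percent on both. This gave an LO part of -0.04 ± 0.04 (SD, n = 2), with a Feature Extraction p of 0.940 and 0.746.

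Hfe, an MHC class I like protein that binds the transferrin receptor and is mutated in hereditary hemochromatosis, had 2 probes that differed in brightness over background. Probe A_42_P656217 gave 338 for LO and 189 for control on array 1, and 263 for LO and 289 for control on array 2. LO was ahead on array 1 and slightly behind on array 2. The ratio was 1.79 with a Feature Extraction p of 5.70e-04 on array 1, and 0.911 with a p of 0.552 on array 2. The threshold was thus passed on array 1 and not on array 2. Of all probes, 5.95% passed it on array 1, a share that includes those that passed on array 2 as well. Its LO part was 0.35 ± 0.69 (SD, n = 2), a geometric mean ratio of 1.28, less than the spread between the arrays. It was larger in size than in 98.3% of the measured probes. With normexp background correction and loess it was 0.17, and with median centring 0.41. The dye part was 0.49, as both pools were brighter in Cy5, the LO pool 1.28-fold and the control pool 1.53-fold. Probe A_44_P172140 gave 16.9, 13.7, 12.3 and 29.8 for LO and control on array 1 and LO and control on array 2, and no channel was well above background. No ratio is given for it, and the first Hfe probe has no second one to set beside it.

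The iron regulatory proteins were measured in 1 of 2 cases. Aco1 (IRP1), a cytosolic aconitase that turns into an RNA-binding protein when its iron-sulfur cluster is lost, gave 351 for LO and 339 for control on array 1, and 380 and 345 on array 2. LO was slightly higher on both arrays. It had an LO part of 0.09 ± 0.06 (SD, n = 2), and the Feature Extraction p was 0.826 and 0.536. With normexp and loess it was -0.0035, so its direction was not stable. Ireb2 (IRP2), which is degraded when iron is plentiful, had 2 probes with signals between 12.6 and 35.2 in the 4 channels. None of these was well above background, and no ratio is given.

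Over the 11 measured probes the median LO part was -0.04, a ratio of 0.970, and the range was -0.16 to 0.35. Over all 15371 measured probes of the array the median was -0.0026. Below 0 were 8 of the 11, and 6 of these 8 were the ferritin probes. Without ferritin the median over the 5 remaining probes was 0.034. A difference of 1.5-fold in the LO part was reached by 0 of the 11, against 0.124% of all measured probes. The same size in the dye part was reached by 2 of the 11, against 6.49%. The SD over the measured probes was 0.13 for the LO part and 0.29 for the dye part in the iron genes, and 0.12 and 0.30 over the array. The LO/control ratio pointed in opposite directions on the 2 arrays for 6 of the 11 probes, and for 75.6% of all measured probes. Those that kept their direction were Tf, Slc40a1 and Aco1 and 1 probe each of Fth1 and Ftl1, with an LO part between -0.16 and 0.09.

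**Figure D3:**
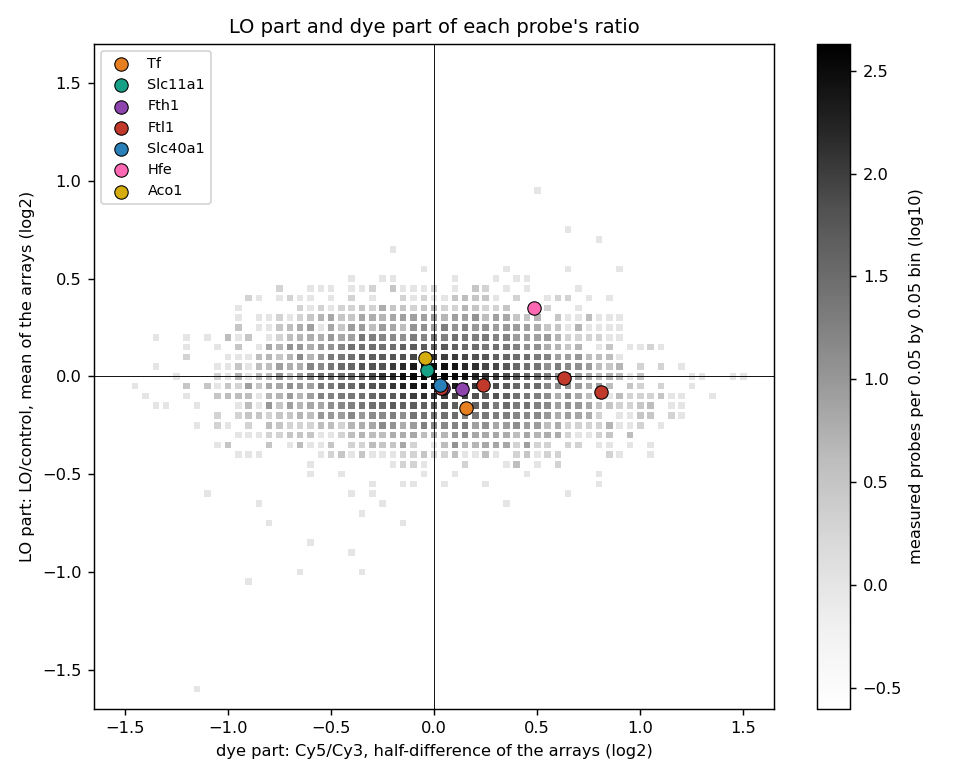
LO part (vertical axis, log2 LO/control, mean of both arrays) against dye part (horizontal axis, log2 Cy5/Cy3) of the 11 measured iron gene probes in colour, over all 15371 measured probes binned in grey (darker: more probes, log10 scale). The cloud is wider along the dye axis (SD 0.30) than along the LO axis (SD 0.12), and the iron probes lie within it, with 2 Ftl1 probes at dye parts of 0.63 and 0.81 and Hfe at an LO part of 0.35.

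Other genes of iron handling were taken from a list of 39, of which 21 were matched, with 29 probes. Of these probes, 15 from 13 genes were measured. The p and direction rule was met by 0 of the 29 probes, against 0.0219% of all probes in either direction. The median LO part of the 15 measured probes was 0.016, between -0.20 and 0.17, with 8 above and 7 below 0.

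Hamp encodes hepcidin, the hormone that binds ferroportin and has it degraded, and is known mainly from the liver. Its probe gave 366 for LO and 369 for control on array 1, and 426 and 339 on array 2. The pools lay close together on array 1 and LO was higher on array 2, with an LO part of 0.16 ± 0.24 (SD, n = 2). Ferroportin, its target, had an LO part of -0.04, as given above.

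Ncoa4, the receptor that brings ferritin to the lysosome, gave 32042 for LO and 31999 for control on array 1, and 29206 and 32194 on array 2. Its LO part was -0.07 ± 0.10 (SD, n = 2), beside -0.064 for Fth1 and -0.05 for Ftl1. Pcbp2, a chaperone that hands iron to ferritin, gave 9689 and 9552 on array 1 and 9297 and 9700 on array 2, with an LO part of -0.02 ± 0.06 (SD, n = 2). For both genes LO was slightly ahead on array 1 and behind on array 2.

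Slc25a37 (mitoferrin 1), the mitochondrial iron importer of red cell precursors, gave 997 for LO and 1150 for control on array 1, and 1148 and 1117 on array 2, an LO part of -0.08 ± 0.17 (SD, n = 2). Hp, the haptoglobin that binds free hemoglobin, had an LO part of -0.04 ± 0.26 (SD, n = 2), and Cybrd1, a ferric reductase, one of 0.08 ± 0.50 (SD, n = 2). In all 3 genes the order of the pools turned between the arrays.

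Slc39a8 (ZIP8), a transporter of zinc, manganese and iron, had 3 probes, of which 2 were measured. A_44_P1052361 gave 208 for LO and 238 for control on array 1, and 204 and 235 on array 2, an LO part of -0.20 ± 0.0086 (SD, n = 2) with the same ratio on both arrays. A_43_P18495 gave 60.0 for LO and 84.5 for control on array 1, and 121 and 68.5 on array 2, an LO part of 0.17 ± 0.93 (SD, n = 2) and a dye part of -0.66. The third probe was dim in all 4 channels. The Feature Extraction p of the first was 0.426 and 0.404, so that the difference repeated by the 2 arrays was within the error given for a single spot. Its size also depended on the processing, as the LO part of A_44_P1052361 was -0.03 with normexp and loess and -0.12 with median centring. Slc46a1, a folate transporter first described as a heme carrier, had 1 measured probe with an LO part of 0.11 ± 0.17 (SD, n = 2).

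**Figure D4:**
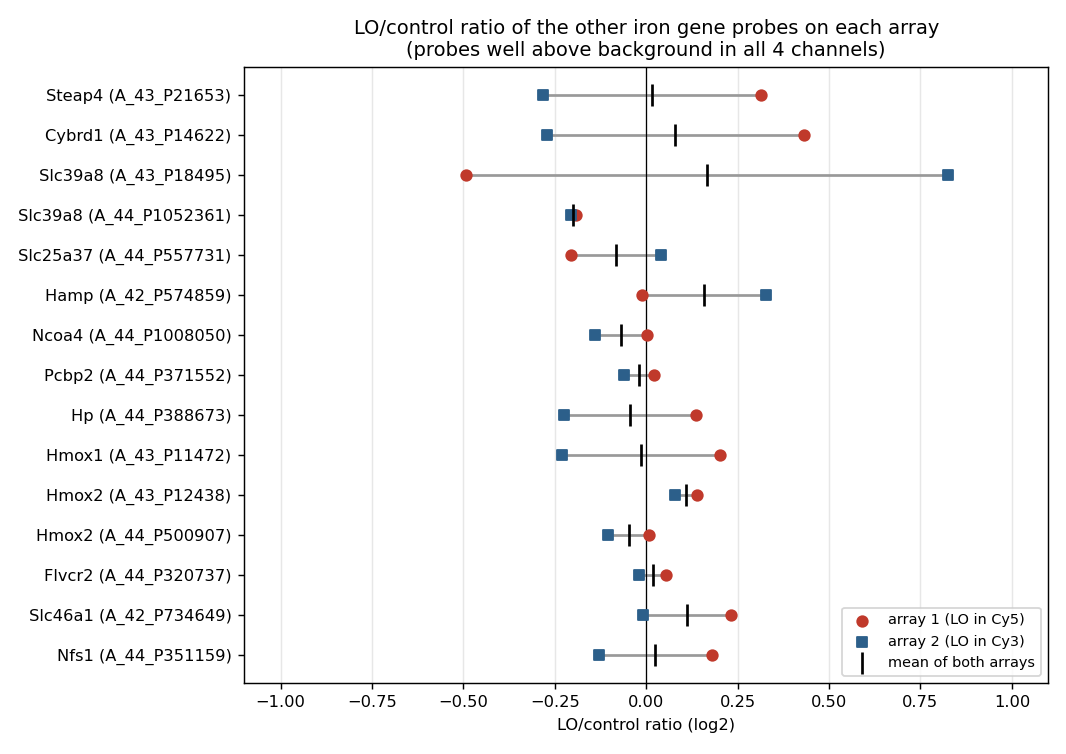
LO/control ratio (log2) of the 15 measured probes of the other iron genes on array 1 (red circles, LO in Cy5) and array 2 (blue squares, LO in Cy3), with the mean of both arrays as a black bar. The arrays lie on opposite sides of 0 for 13 of the 15 probes, the probe of Slc39a8 at -0.20 has both arrays at the same place, and the other Slc39a8 probe has the widest line with the arrays in the reverse order.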

How the data were processed

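Version 11.0.1.1 of Agilent's Feature Extraction was run by the authors on each slide; it subtracted the background and normalized the dyes by LOWESS. The deposited scanner output gives for each feature the median and background-subtracted signals and the processed signals (intensities), a log10 ratio (Cy5/Cy3), the p-value of an error model of that spot, which is not adjusted over features and holds no spread between rats, and quality flags. The deposited value table, log10 by comparison, equalled the log10 ratio of the processed signals on both arrays within 1e-06, so its scale and direction are known, and it is not centred, with a median of 0.023 on array 1 and 0.016 on array 2.

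Control spots and the 338 features flagged as non-uniform or population outliers on either array were removed, none of them of the 10 genes. Each log10 ratio was turned to LO/control and put on the log2 scale, and spots of a probe were averaged (median for p). A probe counted as well above background where all its spots did. Symbols came from RefSeq accessions through a GRCr8 table, for 10767 of 41009 probes. Per the file headers the array was designed on rn4, another build, and no coordinates are printed. The genes and lists were chosen with earlier results of these data known. All probes matched to the 10 genes are named, and none was matched to Tfrc. Of the other iron genes, Hamp is named. So are the 5 measured probes with the highest mean signal and the 3 with the largest LO part in each direction. The p and direction rule was tested on simulated data. The alternatives were other p thresholds, Benjamini-Hochberg adjustment, a fold limit of 1.5, fold limits of 1.5 and 0.75 on each array (per feature of the value table, flagged features kept, added after the data had been seen), flagged features kept, medians over spots, the value table, each array alone, normexp (offset 50) with loess, median centring, and filters on dim probes. Python 3.11.15, numpy 2.4.6, pandas 2.3.3, scipy 1.17.1, matplotlib 3.10.9, R 4.3.3 and limma 3.58.1 were used. The precision is limited by the number of arrays.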

Additional observations from a re-analysis of the deposited data

Results flagged for a closer look

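For 2 probes of Ftl1 the LO/control ratio pointed in opposite directions under the 2 dye orientations, with a Feature Extraction p under 0.01 on each array. The LO/control log2 ratio of probe A_42_P541034 was 0.62 on array 1 and -0.64 on array 2, and that of probe A_44_P149188 was 0.73 and -0.89. The difference between the orientations was not tested, as each was run on 1 array.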

How the results depend on the processing

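The counts of 0 probes up and 0 down among the 10 genes, and 0 called among the other iron genes, were the same with a p under 0.05 or 0.001, Benjamini-Hochberg adjustment, flagged features kept, medians over spots, the value table as the source, the filter on dim probes and the added fold limits of 1.5 and 0.75. A p under 0.001 and the filter on dim probes only remove calls, so a count of 0 could not change with them. For the 10 genes it could not change with flagged features kept or medians over spots either. None of their features was flagged, and each probe had 1 spot. A Benjamini-Hochberg adjusted p is never below the p itself, so it could call nothing beyond what a p under 0.05 called. The value table holds ratios and no p, so it could bring no further probe past the p threshold. A p under 0.05 and the fold limits could have added calls. With array 1 alone 3 probes of the 10 genes were up (2 of Ftl1 and 1 of Hfe) and 0 down, and with array 2 alone 0 were up and 2 down (both of Ftl1), so that the Ftl1 probes reversed. Of all probes, 5.95% had a p under 0.01 on array 1, in either direction. The share on array 2 was not counted, so the count there has no background beside it. With a 1.5-fold limit and no p, 1 of the 15 probes was down, the Hfe probe dim in all 4 channels, and 4 had that size in the dye part. The value of this Hfe probe rests on array 2 alone, as its log ratio on array 1 had been set to 0. Of all 41009 probes, 3339 reached that size in the LO part, in either direction, and 12749 in the dye part. Of the 2 probes called towards the same dye, 1 (A_44_P149188) remained with the threshold at 0.001 and 1 after Benjamini-Hochberg adjustment. The median LO part of -0.04 was 0.05 on array 1 and -0.14 on array 2, -0.04 with normexp and loess, -0.08 with median centring, and -0.05 with 1 channel above background on each array. After the data had been seen, the median without the ferritin probes (0.034) and with 1 value per gene (-0.04) were added. Of 77 values of single measured probes under these alternatives, 3 moved by more than the SD between the arrays, and the sign changed in 9. Most of the 77 could not move that far. With flagged features kept or medians over spots the data were the same, as none was flagged and each probe had 1 spot. The value table held the same ratios for these probes. The value of a single array always lies within that SD of the mean of both. The 3 that moved were Slc11a1 (-0.03) and Aco1 (-0.0035) with normexp and loess, and the second Fth1 probe (-0.12) with median centring. No paired analysis was possible because each dye orientation has 1 array and no result comes from a test between conditions. Probes dim in both pools, those of Ireb2 and 1 of Hfe, carry no ratio at this signal over background.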
